A study of Mus with 8 samples.

Results

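The genes described here are 10 parts of the machinery by which myeloid cells read antibody and complement. They are the Fc gamma receptor genes Fcgr1, Fcgr2b, Fcgr3 and Fcgr4, the receptor signalling chain Fcer1g, the C1q chain genes C1qa, C1qb and C1qc, the complement component C3 and the C3a receptor gene C3ar1. They were taken by Ensembl ID from the series count table, where all 10 were found among 17640 IDs. RNA had been sequenced from mouse bone-marrow monocytes of strain C57BL/6, isolated by negative selection and held in stiff hydrogels up to day 3 in medium that held 100 ng/mL of GM-CSF, 200 ng/mL of IL4 and 100 ng/mL of the prostaglandin PGE2. Control cells carried Vav-iCre, a recombinase transgene active in blood-forming cells, and the mutant cells carried Vav-iCre together with Jak2 V617F, an activating kinase mutation found in myeloproliferative neoplasms. Cells of each genotype were placed in a viscous gel or an elastic gel, which gave 4 groups of 2 libraries. The animals' age, and whether a library came from 1 animal or a pool, are not given in the sources used here. Beyond these 10 genes, markers of monocytes and of other cell types were not analysed here.

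Fc gamma receptors bind the constant part of IgG on immune complexes and coated particles. Fcgr1, Fcgr3 and Fcgr4 encode activating receptors that signal through the gamma chain encoded by Fcer1g, whereas Fcgr2b encodes the inhibitory receptor, and the balance between them sets how strongly a macrophage or dendritic cell answers to IgG. C1q, assembled from the C1qa, C1qb and C1qc chains, recognises bound antibody and dying cells and starts the classical complement pathway; it is made largely by macrophages and related myeloid cells rather than by the liver. C3 is the component on which all complement pathways converge, and C3ar1 is the receptor for its fragment C3a.

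By RefSeq's annotation of GRCm38.p6, matched by symbol, the genes lie in a few places. Fcgr2b (ENSMUSG00000026656; chromosome 1, 170960558 to 170976071), Fcgr4 (ENSMUSG00000059089; 171018926 to 171029761), Fcgr3 (ENSMUSG00000059498; 171051169 to 171065915) and Fcer1g (ENSMUSG00000058715; 171229572 to 171234349) share a stretch of 273.8 kb on chromosome 1. Fcgr1 (ENSMUSG00000015947) lies apart on chromosome 3 (96282909 to 96293969). C1qb (ENSMUSG00000036905; chromosome 4, 136880126 to 136886200), C1qc (ENSMUSG00000036896; 136889801 to 136892936) and C1qa (ENSMUSG00000036887; 136895916 to 136898844) share a stretch of 18.7 kb. C3 (ENSMUSG00000024164) is on chromosome 17 (57203967 to 57228136) and C3ar1 (ENSMUSG00000040552) on chromosome 6 (122847140 to 122856157). These spans cover whole genes with exons and introns. Fcgr2b and Fcgr3 encode closely similar extracellular parts, so reads from those parts may have been divided between the 2 genes by estimation, and their separate values are uncertain to that extent.

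Library titles end in a number that is shared by 1 viscous and 1 elastic library of a genotype. Libraries are named here by the genotype and number of the title: WT_6060 and WT_6064 for control cells, Jak2_6061 and Jak2_6065 for Jak2 V617F cells. The labels do not say what the number marks, and nothing says that libraries of a group came from separate animals, so the p-values take only library-to-library spread into account, part of it possibly technical. Totals ran from 30632355 to 38408851 counts. Both WT_6060 libraries stood apart from the other 6 on the first principal component of all expressed genes (41.5% of the variance; scores 69.4 and 78.2, against −37.1 to −10.9). For this reason the comparisons were also fitted without them. Levels are CPM, a gene's counts per 1000000 of the scaled library total. They are not corrected for transcript length and are compared between libraries, never between genes.

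**Figure D1:**
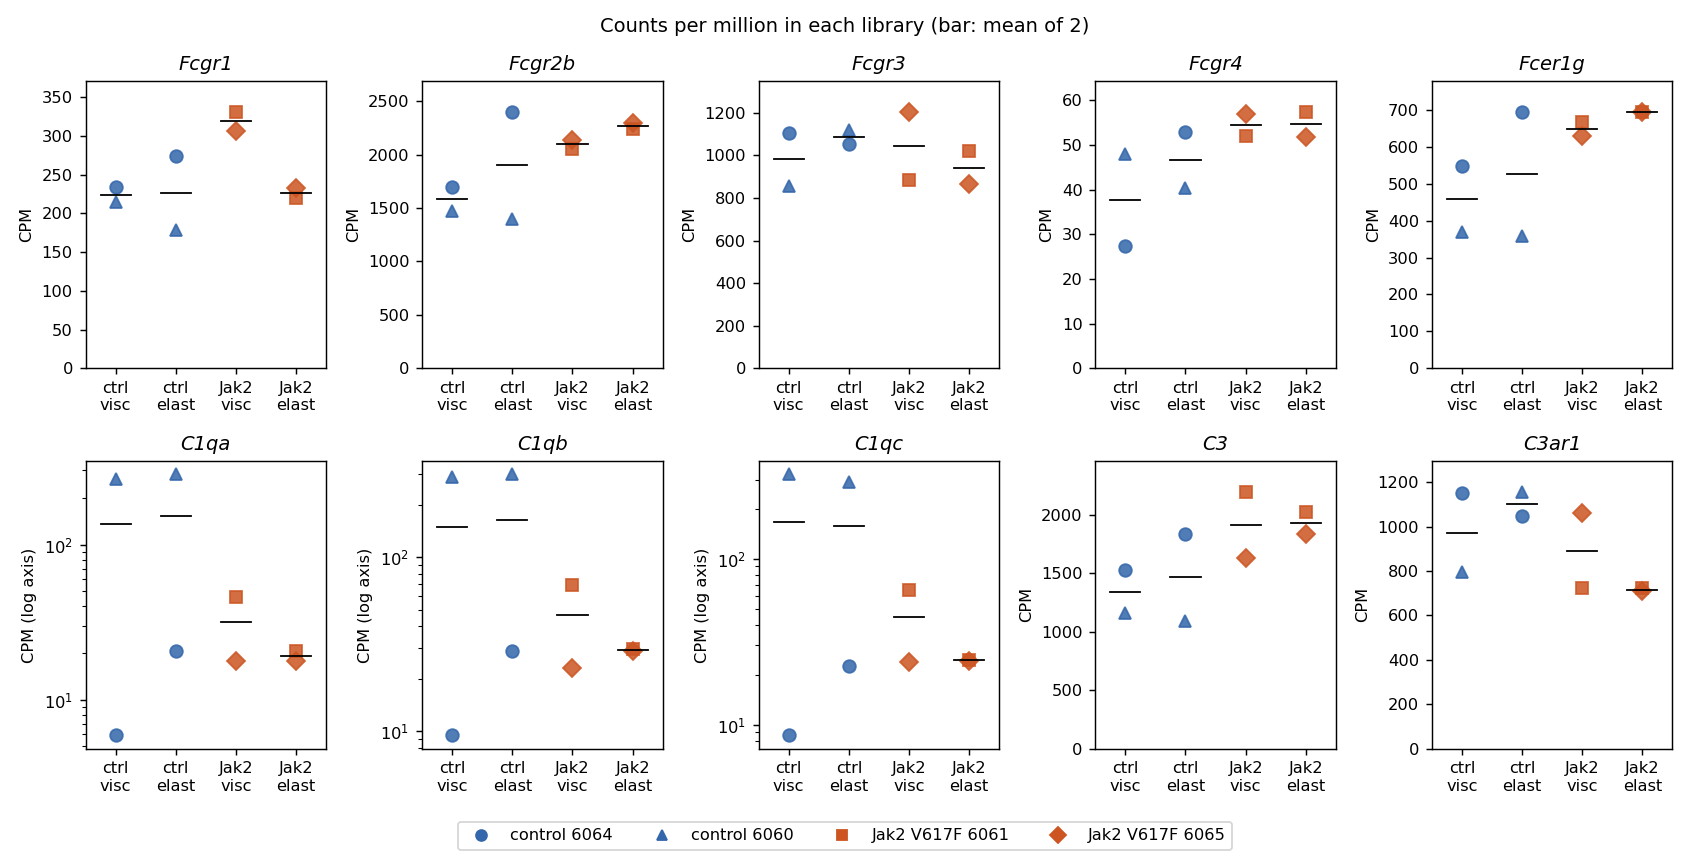
Each panel plots one gene's level in CPM (vertical axis, logarithmic for the C1q genes) in the 8 libraries, by genotype and gel; symbols mark the title number and bars the mean of 2 libraries. The C1q genes ranged over 31.6-fold to 48.2-fold between libraries and were highest in both WT_6060 libraries, while each of the other 7 genes ranged over 1.41-fold to 2.10-fold.

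The Fc receptor genes were present in every library and spanned a much smaller range than the C1q genes. Between the lowest and the highest library, Fcgr3 differed 1.41-fold, Fcgr2b 1.72-fold, Fcgr1 1.85-fold, Fcer1g 1.94-fold and Fcgr4 2.10-fold. Between the control replicates some of them still differed more than most IDs did: in elastic gel the log2 difference of WT_6060 minus WT_6064 was −0.96 for Fcer1g and −0.78 for Fcgr2b, and in viscous gel it was 0.81 for Fcgr4, where the median size over all IDs was 0.35 in each gel. The fewest counts behind any Fc receptor value were 879, for Fcgr4. In these bulk libraries, fewer cells that express a gene and less RNA per cell cannot be told apart.

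Fcgr1, the high-affinity IgG receptor gene, stood at 233.3 (WT_6064) and 214.0 (WT_6060) CPM in control cells in viscous gel and at 273.6 and 178.9 CPM in elastic gel. In Jak2 V617F cells it stood at 330.9 (Jak2_6061) and 306.2 (Jak2_6065) CPM in viscous gel and at 219.9 and 232.9 CPM in elastic gel. Both Jak2 V617F libraries in viscous gel were thus above the 6 others, and the control libraries moved in opposite directions between the gels. Without the WT_6060 libraries the Jak2 V617F values in viscous gel were still the highest, and those in elastic gel lay just under the remaining control library in viscous gel.

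Fcgr2b, the inhibitory receptor gene, stood at 1696 and 1468 CPM in control cells in viscous gel (WT_6064 and WT_6060) and at 2402 and 1397 CPM in elastic gel. Its Jak2 V617F values lay close together, at 2056 and 2141 CPM in viscous gel (Jak2_6061 and Jak2_6065) and at 2244 and 2293 CPM in elastic gel. Fcer1g, the gamma chain that carries the activating signal, had the same shape: control values were 548.0 and 369.8 CPM in viscous gel and 694.8 and 357.6 CPM in elastic gel, and Jak2 V617F values were 667.0, 630.8, 694.1 and 695.1 CPM in the same order. For both genes the WT_6060 libraries were the lowest of all 8, and the WT_6064 library in elastic gel was at the level of the Jak2 V617F libraries or above it. The ratio of Fcgr2b to Fcer1g accordingly stayed between 3.08 and 3.97 in all libraries.

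Fcgr4, an activating receptor gene, had the thinnest counts of the receptors. It stood at 27.3 and 48.0 CPM in control cells in viscous gel (WT_6064 and WT_6060) and at 52.8 and 40.4 CPM in elastic gel, so that the 2 numbers changed places between the gels. Jak2 V617F libraries held 51.9 and 57.0 CPM in viscous gel (Jak2_6061 and Jak2_6065) and 57.4 and 51.8 CPM in elastic gel. The WT_6064 library in viscous gel was the lowest by a clear step, and 7 libraries lay between 40.4 and 57.4 CPM.

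Fcgr3, the low-affinity activating receptor gene, was the most even of the 10 genes. Control values were 1107 and 856.1 CPM in viscous gel (WT_6064 and WT_6060) and 1056 and 1118 CPM in elastic gel. Jak2 V617F values were 882.0 and 1204 CPM in viscous gel (Jak2_6061 and Jak2_6065) and 1020 and 864.7 CPM in elastic gel. The 2 Jak2 V617F numbers moved in opposite directions between the gels, and so did the 2 control numbers.

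The C1q genes behaved differently from all of these. In control cells in viscous gel C1qa stood at 5.88 CPM in the WT_6064 library and 264.3 CPM in the WT_6060 library, and in elastic gel at 20.7 and 283.2 CPM. In Jak2 V617F cells it stood at 45.6 and 17.7 CPM in viscous gel (Jak2_6061 and Jak2_6065) and at 20.6 and 17.8 CPM in elastic gel. Both WT_6060 libraries therefore exceeded each of the other 6 by at least 5.79-fold, and replicates of the control groups differed by 45.0-fold in viscous and 13.7-fold in elastic gel. In raw terms, C1qa had 189 counts in the WT_6064 library in viscous gel and 9712 in its WT_6060 replicate.

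C1qb and C1qc followed C1qa. C1qb stood at 9.46 (WT_6064) and 290.6 (WT_6060) CPM in viscous gel and at 28.8 and 299.2 CPM in elastic gel for control cells. Its Jak2 V617F values were 69.6 (Jak2_6061) and 23.1 (Jak2_6065) CPM in viscous gel and 29.6 and 28.7 CPM in elastic gel. C1qc had 8.59, 323.9, 22.5 and 291.4 CPM in the control libraries, taken in the order just used, and 65.0, 23.8, 24.5 and 24.2 CPM in those of Jak2 V617F. All 3 genes were highest in the WT_6060 libraries, next in the Jak2_6061 library in viscous gel, and lowest in the WT_6064 library in viscous gel. Within a library the chains kept nearly the same proportion: the ratio of C1qb to C1qa ran from 1.06 to 1.61 and that of C1qc to C1qa from 1.03 to 1.46, over libraries in which C1qa itself ranged 48.2-fold.

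Set against all 14785 expressed IDs, the step between the control numbers was far out for the C1q genes. The log2 difference of WT_6060 minus WT_6064, averaged over both gels, was 4.62 for C1qa, 4.46 for C1qc and 4.15 for C1qb, where the median size of this difference over all IDs was 0.31. Counted from the highest difference, C1qa held rank 12, C1qc rank 17 and C1qb rank 23. For the other 7 genes it ran from −0.76 (Fcer1g) to 0.21 (Fcgr4). Both WT_6060 libraries lay above the other 6 for these 3 C1q genes, against 16.1% of all IDs, and below the other 6 for 4 genes (Fcgr1, Fcgr2b, Fcer1g and C3), against 14.8% of all IDs; this comparison was chosen after the values were seen. The step was small for Fcgr1 (1.03-fold) and largest of the 4 for Fcer1g (1.48-fold). Whether the makeup of cells differed in the WT_6060 libraries was not tested.

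**Figure D2:**
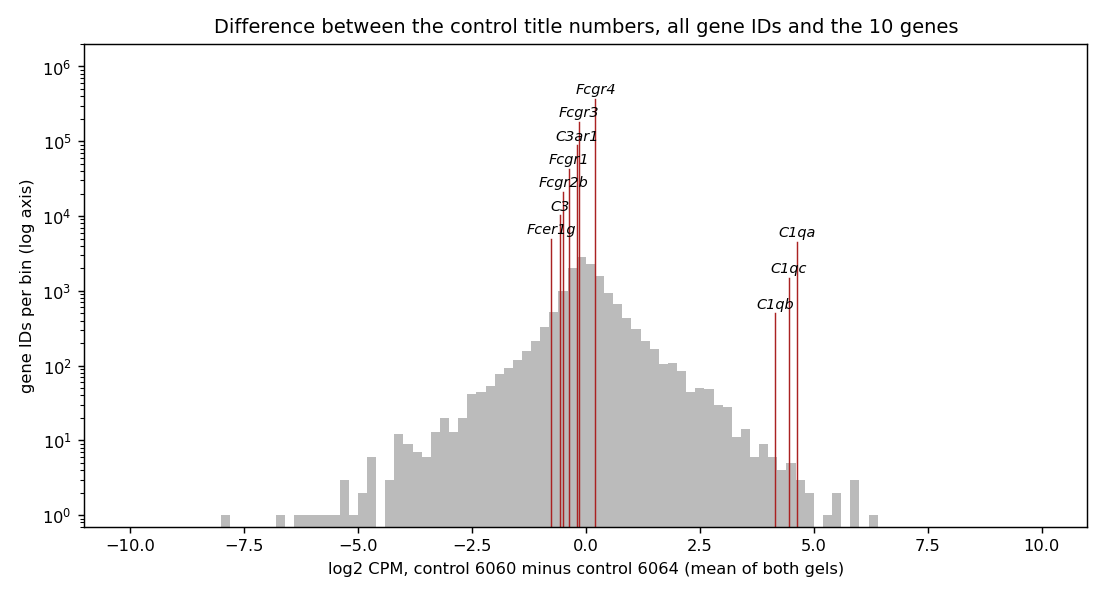
The histogram counts all 14785 expressed gene IDs (vertical axis, logarithmic) by the log2 CPM difference between WT_6060 and WT_6064 libraries, averaged over both gels (horizontal axis); lines mark the 10 genes, and line height has no meaning. C1qa, C1qb and C1qc lie at 4.15 to 4.62, in the far right tail, and the other 7 genes near the centre.

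Among Jak2 V617F replicates the C1q genes also spread in viscous gel, where Jak2_6061 exceeded Jak2_6065 by 2.57-fold for C1qa, 3.02-fold for C1qb and 2.73-fold for C1qc. In elastic gel the same numbers differed by 1.16-fold, 1.03-fold and 1.01-fold. By size among 14785 IDs, the differences in viscous gel held ranks 729 (C1qa), 534 (C1qb) and 642 (C1qc), and those in elastic gel ranks 5417, 12324 and 13682.

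C3 and its receptor gene did not follow the same order of libraries. C3 stood at 1527 and 1159 CPM in control cells in viscous gel (WT_6064 and WT_6060) and at 1837 and 1096 CPM in elastic gel. In Jak2 V617F cells it stood at 2196 and 1632 CPM in viscous gel (Jak2_6061 and Jak2_6065) and at 2029 and 1837 CPM in elastic gel. C3 was lowest in the WT_6060 libraries, and the WT_6064 library in elastic gel was level with the Jak2_6065 library in the same gel.

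C3ar1 stood at 1152 and 795.0 CPM in control cells in viscous gel (WT_6064 and WT_6060) and at 1046 and 1156 CPM in elastic gel. In Jak2 V617F cells it stood at 722.8 and 1060 CPM in viscous gel (Jak2_6061 and Jak2_6065) and at 723.1 and 707.7 CPM in elastic gel. The Jak2 V617F libraries other than Jak2_6065 in viscous gel were thus lower than every control library. The ratio of C3 to C3ar1 ran from 0.95 (WT_6060, elastic) to 3.04 (Jak2_6061, viscous), a wider range than that of either gene.

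The first comparison asked how an elastic gel changes these genes relative to a viscous one. Averaged over genotypes, no member passed edgeR's quasi-likelihood test with Benjamini-Hochberg adjustment: 0 of 10 reached an adjusted p of 0.05, and 0% of all 14785 IDs did. Estimates were as often above 0 (5 genes) as below, with a median log2 fold change of −0.03 (−0.0043 over all IDs). This balance depended on the fit: 7 genes were above 0 in limma-voom (median 0.09) and 7 without both WT_6060 libraries (median 0.24). At an unadjusted p under 0.05 there were 0 members, against 6.28% of all IDs, and DESeq2 and limma-voom also called 0 members; DESeq2 called 0.906% of all IDs. Viscous and elastic libraries overlapped for every member, whereas 3.73% of all IDs separated the 4 libraries of one gel from the 4 of the other. Fcgr1 had the smallest p of the 10, with a log2 fold change of −0.24 (SE 0.15, 95% interval −0.60 to 0.12, adjusted p = 0.914), and of −0.13 (SE 0.098) without both WT_6060 libraries.

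Fcgr1 levels lay furthest apart in Jak2 V617F cells, where viscous gel gave 318.6 ± 17.5 CPM and elastic gel 226.4 ± 9.19 CPM (SD, n = 2). Both numbers were lower in elastic gel, 1.50-fold for Jak2_6061 and 1.31-fold for Jak2_6065. The edgeR log2 fold change was −0.49 (SE 0.21, 95% interval −1.001 to 0.016) and did not pass the test (unadjusted p = 0.0558, adjusted p = 1). With the title number fitted as a block, the estimate was again −0.49 (SE 0.16) and its 95% interval, −0.89 to −0.093, excluded 0. The edgeR test still did not pass there (unadjusted p = 0.0241, adjusted p = 0.606). Fcgr1 was the 1 member at an unadjusted p under 0.05 in that fit, a level reached by 7.01% of all IDs. In control cells the means were 223.6 ± 13.7 and 226.3 ± 67.0 CPM. Fcgr1 was 1 of 3 members whose Jak2 V617F libraries did not overlap between the gels; Fcgr2b (1.09-fold and 1.07-fold higher in elastic gel) and Fcer1g (1.04-fold and 1.10-fold higher) were the others. Of all IDs 39.7% separated in this way, 19.1% higher and 20.6% lower in elastic gel, so 3 of 10 is near the background.

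In control cells the gel ratios of WT_6060 and WT_6064 differed. For the C1q genes, elastic over viscous gel was 3.53-fold (C1qa), 3.05-fold (C1qb) and 2.63-fold (C1qc) for WT_6064, but 1.07, 1.03 and 0.90 for WT_6060. In Jak2 V617F cells the same ratios were 0.45, 0.43 and 0.38 for Jak2_6061 and 1.00, 1.25 and 1.02 for Jak2_6065. The direction of the C1q ratios thus differed between the title numbers. With all 8 libraries, the 95% intervals of their log2 gel effects were wide and included 0 in both genotypes. For C1qa they were −3.66 to 3.99 in control cells and −4.61 to 3.16 in Jak2 V617F cells. Without both WT_6060 libraries, control cells held 1 library in each gel. Their log2 gel effects were then 1.82 for C1qa, 1.61 for C1qb and 1.39 for C1qc. Control intervals of that fit are not given, because 1 library in each gel shows no spread of its own. The C1qa interval in Jak2 V617F cells narrowed to −1.79 to 0.35. Fcgr4 was 1.93-fold higher in elastic gel for WT_6064 and 1.19-fold lower for WT_6060, with a log2 fold change of 0.31 (SE 0.27, adjusted p = 0.985 by edgeR). No member's control libraries separated by gel, against 26.9% of all IDs. edgeR called 0 members within either genotype and 0% of all IDs, and limma-voom also called 0 members. DESeq2 called 0 members in either genotype and 0.237% of all IDs in each. At an unadjusted p under 0.05 by edgeR there were 0 members in either genotype, against 4.85% of all IDs in control cells and 3.08% in Jak2 V617F cells. DESeq2 had 0 members at that level in control cells (4.92% of all IDs) and 1 in Jak2 V617F cells (3.37%).

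Without both WT_6060 libraries, edgeR again called 0 members in each gel comparison (0.0133% of all IDs over both genotypes, 0% within control and 0.00665% within Jak2 V617F libraries), whereas DESeq2 called 1 in each. Over both genotypes it was Fcgr4 (log2 fold change 0.48, SE 0.15, adjusted p = 0.0413; 2.29% of all IDs called). In control cells it was again Fcgr4 (0.96, SE 0.24, adjusted p = 0.0148; 0.692% of all IDs), and in Jak2 V617F cells it was Fcgr1 (−0.49, SE 0.13, adjusted p = 0.0275; 1.26% of all IDs). The control result then compares 1 library with 1 and borrows its spread from the Jak2 V617F groups. The edgeR adjusted p-values in the same order were 0.215, 0.457 and 0.355, and over all alternatives the adjusted p ran from these DESeq2 values up to 1. Leaving out the WT_6064 library in viscous gel turned the edgeR estimate for Fcgr4 to −0.015 over both genotypes and to −0.035 in control cells.

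The ratio of the inhibitory receptor gene to the high-affinity activating one separated the gels. The ratio of Fcgr2b to Fcgr1 CPM in viscous gel was 7.27 (WT_6064), 6.86 (WT_6060), 6.21 (Jak2_6061) and 6.99 (Jak2_6065). In elastic gel it was 8.78, 7.81, 10.2 and 9.84 in the same order. All 4 elastic libraries were above all 4 viscous ones, the WT_6060 libraries included. This was the 1 ratio of 45 member pairs that separated the gels, and it was picked out from them after the values were seen, so no test is given. As a background, 3.69% of all other IDs had a ratio to Fcgr1 that was higher in all 4 elastic libraries. Among the members, Fcgr2b was the 1 gene with such a ratio. This share counts ratios to Fcgr1 in 1 direction only. The 45 pairs were scanned in either direction and include pairs without Fcgr1. The share is therefore no like background for 1 pair of 45, and nothing is concluded from setting them side by side. The ratio of Fcgr2b to Fcgr3 did not separate the gels: it was 1.53 in viscous and 2.28 in elastic gel for WT_6064, 1.78 and 2.65 for Jak2_6065, 1.72 and 1.25 for WT_6060, and 2.33 and 2.20 for Jak2_6061.

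**Figure D3:**
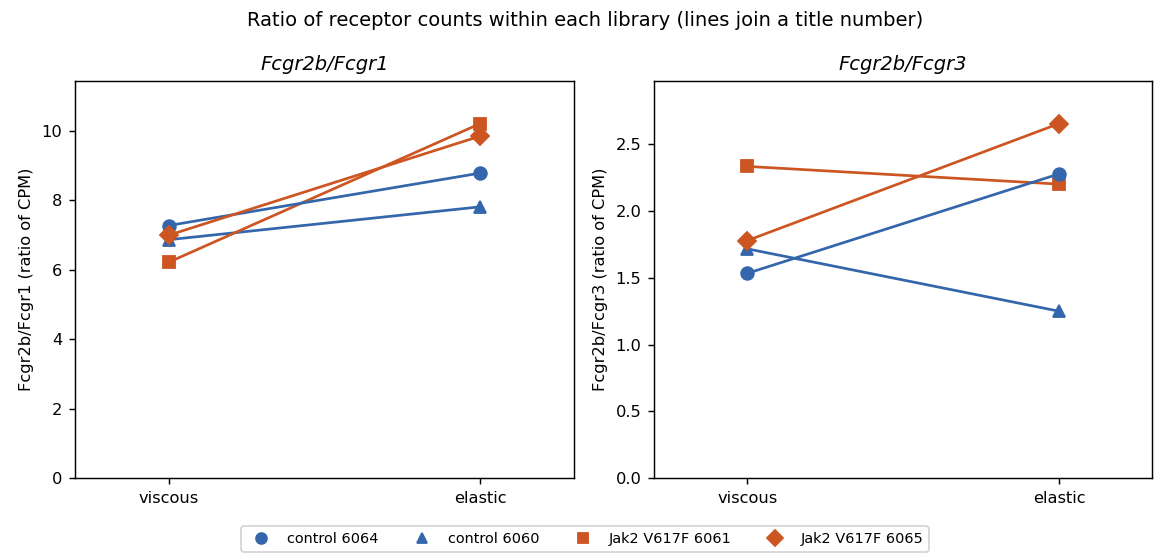
The ratio of Fcgr2b to Fcgr1 (left) and to Fcgr3 (right), in CPM within a library (vertical axis), is plotted for viscous and elastic gel; lines join the libraries of a title number. Fcgr2b/Fcgr1 runs from 6.21 to 7.27 in viscous and from 7.81 to 10.2 in elastic gel, whereas Fcgr2b/Fcgr3 overlaps.

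Whether Jak2 V617F alters the gel response was tested as the difference of the gel effects. edgeR called 0 of 10 members and 0% of all IDs, and all 10 intervals included 0; at an unadjusted p under 0.05 there were 0 members, against 1.72% of all IDs, and DESeq2 called 0 of them (0.0135% of all IDs; 0.0532% without both WT_6060 libraries). The estimate was below 0 for all 10 genes, with a median of −0.40, where 54.2% of all IDs were below 0 and the median was −0.03. The 10 values come from the same 8 libraries and are not independent. Fcgr1 had the smallest p, with a difference of −0.51 (SE 0.30, 95% interval −1.23 to 0.21, adjusted p = 1). With 1 library left out, between 6 (WT_6064 in viscous gel) and 10 of the estimates were below 0. Without both WT_6060 libraries all 10 were (median −0.56). Control cells then hold 1 library in each gel, so intervals and p-values of that fit are not given for this comparison.

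The next comparison asked how Jak2 V617F cells differ from control cells in viscous gel. For 5 of the 10 genes (Fcgr1, Fcgr2b, Fcgr4, Fcer1g and C3) both Jak2 V617F libraries lay above both control libraries, against 18.6% of all IDs that were higher and 37.7% that separated either way. Of these 5, Fcgr4 was lowest in the WT_6064 library, and the others were lowest in the WT_6060 libraries over the whole series. Fcgr1 averaged 318.6 ± 17.5 CPM with the mutation and 223.6 ± 13.7 CPM without it (SD, n = 2), with a log2 fold change of 0.51 (SE 0.21, 95% interval 0.0018 to 1.02). The other estimates were 0.53 for Fcgr4 (SE 0.27), 0.41 for Fcgr2b (SE 0.29), 0.50 for Fcer1g (SE 0.34) and 0.51 for C3 (SE 0.32). Without both WT_6060 libraries Fcgr1 was at 0.45, Fcgr2b at 0.31, Fcer1g at 0.24 and C3 at 0.33, whereas Fcgr4 was at 0.995. Leaving out the WT_6064 library in viscous gel instead gave 0.82 for Fcer1g, 0.73 for C3 and 0.19 for Fcgr4, and leaving out Jak2_6061 there gave 0.28 for C3. None passed the test: edgeR called 0 of 10 members and 0% of all IDs, with adjusted p-values from 0.664 to 0.929. Fcgr1 was the 1 member at an unadjusted p under 0.05, a level reached by 7.31% of all IDs, and DESeq2 called 0 members (0.413% of all IDs).

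The direction of the C1q genes in viscous gel depended on the WT_6060 library. With all libraries the log2 fold changes of Jak2 V617F over control were −2.09 for C1qa (SE 1.66), −1.70 for C1qb (SE 1.54) and −1.90 for C1qc (SE 1.62). Without both WT_6060 libraries they became 2.43 (SE 0.60), 2.29 (SE 0.67) and 2.37 (SE 0.62), with edgeR adjusted p-values of 0.355, 0.363 and 0.36. DESeq2 without these libraries called C1qa (log2 fold change 2.44, adjusted p = 0.000624) and Fcgr4 (1.00, adjusted p = 0.000647), with 1.13% of all IDs called; over all alternatives the adjusted p of C1qa ran from 0.000624 to 0.965 and that of Fcgr4 from 0.000647 to 0.965. edgeR called 0 members and 0% of all IDs without them. Both calls rest on the single WT_6064 library in viscous gel, which was the lowest of all 8 for C1qa, C1qb, C1qc and Fcgr4.

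In elastic gel the genotypes had nearly the same mean level of Fcgr1, which averaged 226.4 ± 9.19 CPM with the mutation and 226.3 ± 67.0 CPM without it. C3ar1 had the smallest p of the 10, at 715.4 ± 10.9 and 1101 ± 77.6 CPM (SD, n = 2), with a log2 fold change of −0.62 (SE 0.27, 95% interval −1.26 to 0.021, unadjusted p = 0.0559, adjusted p = 0.937 by edgeR). Without the WT_6060 libraries its log2 fold change was −0.55 (SE 0.25). C3ar1, Fcgr3 and C1qa were lower without overlap in Jak2 V617F cells, 3 of 10 against 18.9% of all IDs lower and 36.1% separated either way; for C1qa the gap was between 20.6 and 20.7 CPM. The C1q estimates were −2.98 for C1qa (SE 1.73), −2.49 for C1qb (SE 1.58) and −2.69 for C1qc (SE 1.67), and without the WT_6060 libraries −0.11 (SE 0.52), 0.016 (SE 0.59) and 0.11 (SE 0.55). edgeR called 0 members and 0% of all IDs, with 0 members and 4.42% of all IDs at an unadjusted p under 0.05. DESeq2 called 0 members with all libraries (0.298% of all IDs) and without the WT_6060 libraries (0.386%).

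**Figure D4:**
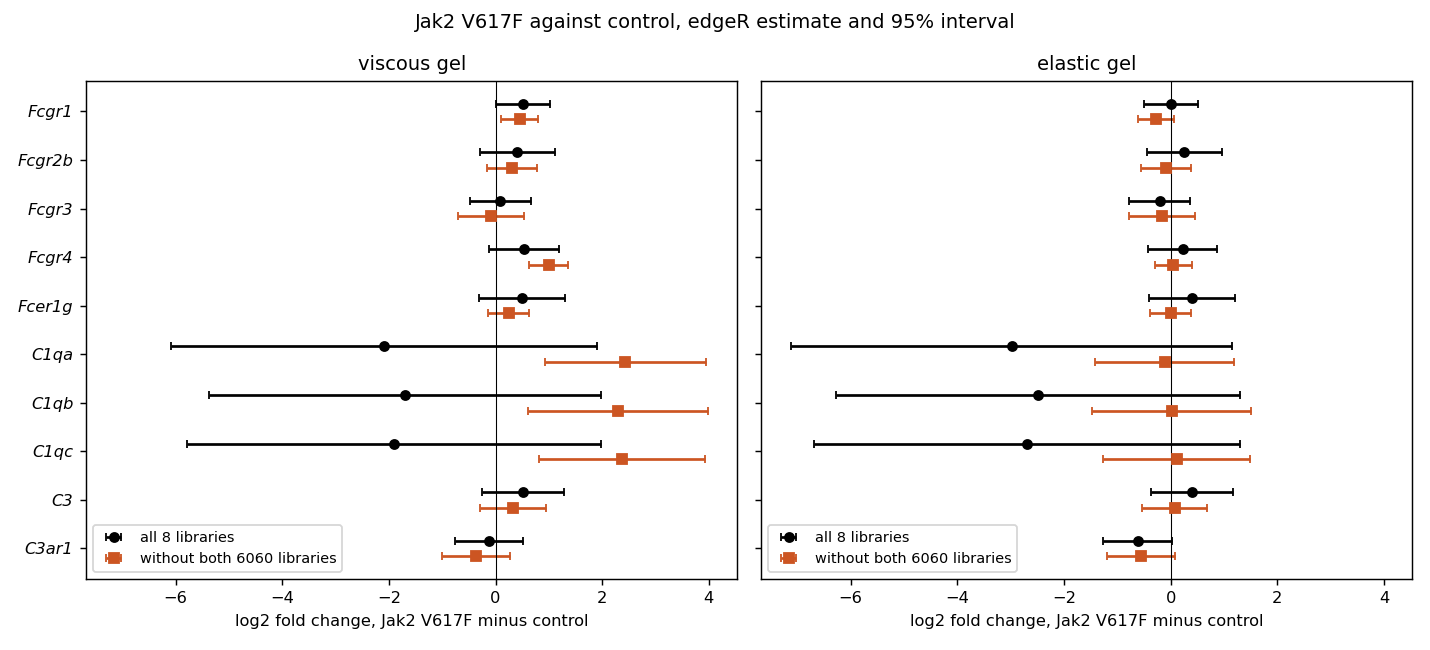
Points give the edgeR log2 fold change of Jak2 V617F over control (horizontal axis) for each gene in viscous and in elastic gel, and bars the 95% interval, from all 8 libraries (black) and without both WT_6060 libraries (orange, where control cells hold 1 library in each gel). In viscous gel C1qa, C1qb and C1qc move from −2.09 to −1.70 up to 2.29 to 2.43 when the WT_6060 libraries are left out.

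Over both gels, no gene separated the 4 Jak2 V617F libraries from the 4 control libraries, against 6.89% of all IDs. Genotypes were also compared on counts summed over the gels for each title number, 2 sums against 2. Fcgr4 gave the smallest p of the 10, with a log2 fold change of 0.38 (SE 0.11, 95% interval 0.093 to 0.66, unadjusted p = 0.0204, adjusted p = 0.792 by edgeR). edgeR called 0 of 10 members and 0% of 15239 IDs; 1 member and 5.22% of all IDs had an unadjusted p under 0.05, and DESeq2 called 0 members (0.696% of all IDs, or 2.27% when averaged over the 8 libraries instead). Other estimates were 0.30 for Fcgr1 (SE 0.17), 0.33 for Fcgr2b (SE 0.26), 0.45 for Fcer1g (SE 0.30), 0.46 for C3 (SE 0.29) and −0.34 for C3ar1 (SE 0.20). Calls depended on which control number was used. When WT_6060 alone stood for control cells, edgeR called 7 members (Fcgr1, Fcgr2b, Fcer1g and C3 higher, the 3 C1q genes lower in Jak2 V617F cells), with 16.6% of all IDs called. When WT_6064 alone stood for control cells it called 0 members, and the C1q estimates were 0.97 to 1.18 in place of −2.45 to −2.02. The estimates of Fcgr1 (0.12), Fcgr2b (0.092), Fcer1g (0.11) and C3 (0.20) were then all smaller than with both control numbers, while Fcgr4 was at 0.45 and C3ar1 at −0.44. Adjusted p-values of the 7 genes with WT_6060 alone ran from 0.00557 (C1qa) to 0.0487 (Fcgr2b) and over all alternatives reached 1.00. That fit compares a single control sum, whose spread is assumed to be that of the Jak2 V617F sums.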

How the data were processed

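Per the labels' protocols, enzymes (collagenase, alginate lyase) freed the cells from the gels and an mRNA library kit was used. Raw counts, one whole number for each Ensembl ID and library, are what the authors deposited; the submitters' processing notes name Salmon, DESeq2 and GRCm38, without version or role. Strand use, summing to genes and rounding are not given in the sources used here. All 8 per-library files held the same counts as the series table, whose smallest sum per ID was 10. Totals of at least 30632355 counts leave counting error small for all 10 genes beside their range over the 8 libraries. It is not small beside the narrowest gaps. An example is C1qa in elastic gel, at 20.6 CPM (709 counts, Jak2_6061) and 20.7 CPM (666 counts, WT_6064).

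Gene symbols came with the member list; the reference gene table paired 0 of 49997 genes with an Ensembl ID. Therefore 13 lists (other complement genes, other Fc receptors, Fc receptor signalling and cell type markers) and the search for genes of like pattern were not run. The named genes are all 10 members. Members and lists were chosen with earlier results of these data known.

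IDs were kept by filterByExpr (14785) with TMM scaling. In edgeR 4.0.16 (R 4.3.3), all 8 libraries entered 1 quasi-likelihood fit of 4 group means, and genotypes were also compared on counts summed per title number. Tests were two-sided, adjusted over all IDs by Benjamini-Hochberg, and called under 0.05. Standard errors come from the test statistic. Log2 CPM used a prior count of 2. Alternatives were the Wald test of DESeq2 1.42.0, limma 3.58.1 with voom weights, other scalings and filters (none, or at least 50 counts in 2 libraries), the title number as a block, only the 4 libraries compared, and each library left out. The fits without both 6060 libraries, the ratios and the steps between title numbers were added after seeing the data. So was the DESeq2 genotype fit averaged over the 8 libraries. No replicate pair looked like 1 library deposited again, since counts of a pair gave a chi-square of 19.1 to 262.4 times its degrees of freedom. On simulated counts with a gel effect, edgeR, limma-voom and DESeq2 were tested for the averaged gel comparison only. Figures used matplotlib 3.10.9 in Python 3.11.15.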

Additional observations from a re-analysis of the deposited data

How the results depend on the processing

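For the 7 comparisons, 111 of 116 alternatives gave the same number of called members, 0. The exceptions were DESeq2 without both WT_6060 libraries, which called 1 member in each gel comparison (averaged, control, Jak2 V617F) and 2 in the genotype comparison in viscous gel, and the summed genotype comparison, where leaving out 1 title number gave 0 to 7. Single-gene estimates were followed only where they exceeded their SE or were called in some fit, which left 30. For these, 435 of 468 alternatives kept direction and side of the threshold, 11 passed it in the same direction and 22 changed sign. Smaller estimates, left out of this count, could change sign too. The averaged gel effect of C1qa was −0.28 in the main fit and 0.16 with the title number as a block. Leaving out both WT_6060 libraries, an alternative chosen after seeing the data, turned the genotype estimates in viscous gel to 2.43 (C1qa), 2.29 (C1qb) and 2.37 (C1qc) by edgeR and to 2.44, 2.299 and 2.38 by DESeq2. In elastic gel it gave 0.016 (C1qb), 0.11 (C1qc) and −0.0014 (Fcer1g) by edgeR and 0.022 (C1qb) and 0.12 (C1qc) by DESeq2. The cause was not tested.

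With 1 library left out, the gel estimate of Fcgr4 ran from −0.015 to 0.39 averaged over genotypes and from −0.035 to 0.77 in control cells. Genotype estimates in viscous gel ran from −3.05 to 2.43 (C1qa), −2.70 to 2.29 (C1qb) and −2.86 to 2.37 (C1qc). In elastic gel they ran from −3.36 to 0.016 (C1qb), −3.58 to 0.11 (C1qc) and −0.0010 to 0.96 (Fcer1g). On summed counts they ran from −3.37 to 0.97 (C1qa), −2.92 to 1.01 (C1qb) and −3.11 to 1.18 (C1qc). The ends with the opposite sign came without a WT_6060 library for the C1q genes and Fcer1g, and without WT_6064 in viscous gel for Fcgr4. A lone library was assumed to vary like the other groups.

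Over all IDs edgeR called 0 in each comparison, whereas DESeq2 called 134 (gel, averaged), 35 (gel, control), 35 (gel, Jak2 V617F), 2 (difference of gel effects), 61 (genotype, viscous), 44 (genotype, elastic) and 106 (genotype, summed). Other scalings moved the median of all IDs by at most 0.022 on the log2 scale. Deviations from the group means correlated between the gels by 0.53 for the control numbers and by −0.089 for the Jak2 V617F numbers. With 2 libraries a group, each genotype gives a single such value, which cannot settle whether the numbers pair the libraries. The main gel fits left the pairing out because the labels do not say what the number marks. With the title number as a block, 0 members were called in each of the 4 gel comparisons, and calls over all IDs in the averaged gel comparison went from 0 to 5. The lowest count of a member was 189 (C1qa). The interval of the C1qa gel effect in control cells was −3.66 to 3.99 without the block and −0.27 to 2.06 with it, and its SE in Jak2 V617F cells was 1.62 with all libraries and 0.43 without both WT_6060 libraries.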
